A study of Mus musculus with 6 samples.

Results

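The 10 genes described here make and shape mitochondria: Ppargc1a, Ppargc1b, Tfam and Nrf1 act in mitochondrial biogenesis, Mfn1, Mfn2 and Opa1 in fusion, and Dnm1l, Fis1 and Tbc1d15 in or around fission. They were chosen by symbol for the known function of their products, with earlier results of these arrays known. They are read by 29 of the 45037 probe sets that were not array controls, and are 10 of the 18193 genes that those probe sets name. A probe set is a group of short probes on the array that together give 1 signal for 1 stretch of a transcript. The cells were C2C12 myoblasts, proliferating precursors of mouse skeletal muscle kept as a cell line, carrying a tetracycline-inducible construct for integrin alpha7, a muscle receptor subunit that binds laminin. In the 3 arrays labelled induced, undifferentiated cells had 36 h with 1 µg/ml tetracycline. In the 3 arrays labelled noninduced, cells of the same line had 36 h without it, and both groups were kept in medium with 20% serum. The series describes the 3 samples of each group as biological replicates, and asks how more integrin alpha7 changes myoblast transcription. Both groups carry the construct and only one had the drug, so an effect of tetracycline itself and an effect of the construct cannot be told apart.

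Mitochondria fuse and divide continually. Mitofusins join outer membranes and Opa1 joins inner membranes, while the dynamin Drp1, the product of Dnm1l, is drawn from the cytosol by outer membrane receptors and constricts the organelle. New mitochondrial mass depends on PGC-1 coactivators, which work with nuclear respiratory factors to raise nuclear genes for mitochondrial proteins, among them Tfam, the factor that packages and transcribes mitochondrial DNA. In skeletal muscle this programme is known to rise when myoblasts differentiate into myotubes and when muscle is exercised. Tbc1d15 encodes a GTPase-activating protein for the small GTPase Rab7. In human cells it is recruited to mitochondria by Fis1 and shapes both the mitochondrial network and the membranes that form around mitochondria during mitophagy.

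The one probe set of these genes past the threshold read Tbc1d15, 1.39-fold higher in induced arrays (adjusted p = 0.0151, limma), where 0.200% of all tested probe sets passed. The other Tbc1d15 probe sets did not pass, with log2 fold changes of 0.07 and 0.03. A probe set each of Mfn1 and Opa1 had the next smallest p-values among these genes but did not pass. Their groups did not overlap, with induced arrays higher, as for 9.65% of all tested probe sets. The DNA just before the start of these 3 genes is shown with that of Tfam, the textbook target of the biogenesis factors, so that the 3 genes with the smallest p-values and a gene with overlapping groups can be read side by side. The sequences are the 250 bases before the annotated start in RefSeq's table for assembly GRCm38.p6, 5′ to 3′ on the gene's own strand. Capitals mark every match, on either strand, to 5 short motifs: the NRF1 core GCATGCGC, the ETS motif CCGGAAGT bound by the factor GABP, the cyclic AMP response half-site TGACGT, the estrogen-related receptor motif AAGGTCA and the C/EBP-ATF motif TGATGNAA.
Tbc1d15, chr10:115251494-115251743, minus strand: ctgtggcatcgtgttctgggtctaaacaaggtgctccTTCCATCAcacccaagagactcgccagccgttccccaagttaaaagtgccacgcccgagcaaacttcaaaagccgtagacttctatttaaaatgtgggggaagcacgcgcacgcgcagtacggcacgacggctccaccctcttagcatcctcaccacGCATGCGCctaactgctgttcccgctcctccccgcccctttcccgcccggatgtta
Mfn1, chr3:32529232-32529481, plus strand: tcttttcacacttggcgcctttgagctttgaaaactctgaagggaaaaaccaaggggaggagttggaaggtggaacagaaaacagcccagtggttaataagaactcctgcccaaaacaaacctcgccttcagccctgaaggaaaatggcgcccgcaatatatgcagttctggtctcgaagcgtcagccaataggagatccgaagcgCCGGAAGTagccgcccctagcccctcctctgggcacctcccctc
Opa1, chr16:29579084-29579333, plus strand: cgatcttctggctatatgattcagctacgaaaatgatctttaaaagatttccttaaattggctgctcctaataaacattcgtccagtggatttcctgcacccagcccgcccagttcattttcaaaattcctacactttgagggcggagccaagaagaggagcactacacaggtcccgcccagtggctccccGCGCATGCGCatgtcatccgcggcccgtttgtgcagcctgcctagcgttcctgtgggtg
Tfam, chr10:71238045-71238294, minus strand: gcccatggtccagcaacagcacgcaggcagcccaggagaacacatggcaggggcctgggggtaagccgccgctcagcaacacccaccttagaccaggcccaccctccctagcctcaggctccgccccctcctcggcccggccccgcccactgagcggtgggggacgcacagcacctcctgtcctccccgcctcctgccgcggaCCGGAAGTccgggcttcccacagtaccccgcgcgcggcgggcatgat

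The NRF1 core was found before Tbc1d15, where the match began 56 bases before the start, and before Opa1, where 2 overlapping matches, 1 on each strand, began 59 and 57 bases before it. No other matches overlapped in the 4 sequences. Among all 32851 promoters of the table, 2.26% held it, and among its 27025 genes 2.56%. Some genes have more than 1 promoter there. The ETS motif was found before Tfam, Mfn1 and Fis1, at 47, 44 and 18 bases, and in 2.88% of all promoters (3.23% of genes). The cyclic AMP half-site was found before Ppargc1a and Mfn2 and in 6.47% of promoters (7.29% of genes). The estrogen-related receptor motif was found before none of the 9 member genes in the table and in 4.08% of promoters (4.70% of genes). The C/EBP-ATF motif was found before Tbc1d15 alone among the 9 member genes, 213 bases before the start. It was found in 3.45% of promoters (3.91% of genes). Ppargc1b had no entry used here. A match is a string of letters in this window and was not tested as a binding site, and the members with and without a given motif were too few to be compared.

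The target of the construct was read first. The Itga7 probe set 1418393_a_at gave signals of 674.7, 727.2 and 676.3 in induced arrays, against 811.1, 778.3 and 785.8 in noninduced arrays. Every induced array was below every noninduced array, the opposite of the labels, with a log2 fold change of -0.19 (SE 0.0583, adjusted p = 0.181, limma; exact two-sided permutation p = 0.1, the smallest that 3 against 3 arrays can give). After median centring it was -0.10. Whether this probe set reads the construct's transcript is not known here, and the groups are therefore called by their labels throughout. All 3 noninduced arrays were scanned before the induced ones. Fluidics runs were inferred from the times in the instrument records, with a gap of over 30 min taken as the start of a new run. By this rule the 3 noninduced arrays fell in a first run with induced replicate 1, and induced replicates 2 and 3 in a second run. The mean signal, trimmed at both ends, was 150.0 on every array. The median signal was 22.9 to 24.9 on induced arrays and 24.99 to 27.7 on noninduced arrays. The 3′ to 5′ signal ratio of Gapdh was 0.761 to 0.782 on induced arrays and 0.788 to 0.802 on noninduced arrays, and that of Actb 1.117 to 1.143 on induced arrays and 1.0999 to 1.108 on noninduced arrays. Neither ratio overlapped between the groups, and their part in the results below was not tested.

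Of the 10 myoblast markers on the array, 8 passed the signal filter described below, with Pax7 and Myf6 below it, and none of the 8 passed the test. Their summed signal over all 10 was 6955 to 7187 in induced arrays and 7404 to 7488 in noninduced arrays. Myod1, Chrna1 and Itga7, the target of the construct, were apart and lower in induced arrays, as were 10.6% of all probe sets past the filter. Pax7 was also apart and lower, as were 7.90% of probe sets below the filter. The other myoblast markers overlapped between the groups. Of 10 markers of differentiated muscle, only 2 passed the filter, Myog and Acta1, and the myosin heavy chains Myh1, Myh2 and Myh3 did not. Neither Myog nor Acta1 passed the test, and Myog overlapped between the groups. Acta1 was apart, at 184.3, 188.7 and 203.1 in induced arrays, against 167.1, 133.2 and 177.5 in noninduced arrays. Its log2 fold change was 0.25 (adjusted p = 0.310, limma). The summed signal of the 10 markers of differentiated muscle was 262 to 296 in induced arrays and 282 to 320 in noninduced arrays. Of markers of other cell types, 3 of 6 for macrophages (Cd68, Adgre1 and Csf1r), 1 of 4 for endothelium (Kdr), 0 of 3 for adipocytes, 1 of 4 for neural cells (Gfap) and 1 of 5 for fibroblasts (Pdgfra) passed the filter. None of these passed the test, and Ptprc, Itgam, Pecam1, Cdh5, Adipoq, Rbfox3, Dcn and Lum lay below the filter. Pdgfra, a receptor of mesenchymal cells, gave 101.4, 75.05 and 65.4 in induced arrays, against 60.6, 37.3 and 50.1 in noninduced arrays. These groups were apart, with a log2 fold change of 0.56 (adjusted p = 0.195, limma). Dcn of the same list, below the filter, was apart in the other direction. It gave 2.05, 5.47 and 3.08 in induced arrays, against 9.33, 9.71 and 15.7 in noninduced arrays. Thy1, Lum and Postn overlapped between the groups. Snap25 of the neural list, below the filter, was apart and lower in induced arrays. It gave 0.126, 2.94 and 1.18 in induced arrays, against 8.41, 9.40 and 9.14 in noninduced arrays. The 5 fibroblast markers summed to 90.7 to 148 in induced arrays and 103 to 112 in noninduced arrays, and the 3 adipocyte markers to 7.68 to 13.5 in induced arrays and 15.2 to 34.2 in noninduced arrays. The 4 endothelial markers summed to 48.8 to 59.9 in induced arrays and 50.2 to 65.9 in noninduced arrays, and the 4 neural markers to 57.9 to 99.1 in induced arrays and 58.6 to 80.9 in noninduced arrays. The 6 macrophage markers summed to 129 to 151 in induced arrays and 159 to 184 in noninduced arrays, and the part of these sums in the results was not tested. In bulk RNA, fewer cells of one type and less RNA per cell cannot be told apart.

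Signals were compared as log2(signal + 16), which shrinks the change of dim probe sets. A probe set was tested if its mean signal over the 6 arrays lay above 23.44, the median of all. That left 22518, and adjusted p-values (limma, Benjamini-Hochberg) run over all of them, with 0.05 as the threshold. Among them 0.200% passed in either direction, 0.120% as higher in induced arrays and 0.0799% as lower. Of the 29 probe sets of the 10 genes, 21 from 9 genes were tested and 8 lay below the filter, including all 5 of Ppargc1a. Of the 21, 1 passed as higher, 0 passed as lower and 20 did not pass. By unadjusted p under 0.05 the counts were 6 higher and 0 lower, where 7.43% and 7.26% of all tested probe sets did so. The groups did not overlap for 6 probe sets higher in induced arrays and for 0 lower, where 9.65% and 10.6% of all tested probe sets were apart in these directions and 20.3% in either. Their log2 fold changes were positive for 14 and negative for 7, with a median of 0.04, against -0.01 over all tested probe sets. Some of the probe sets counted above read the same gene. Taking for each of the 9 genes its probe set with the highest signal, 5 were positive and 4 negative, also with a median of 0.04. Of these 9 probe sets, 3 had an unadjusted p under 0.05 (limma) as higher and 0 as lower. The groups were apart for 3 as higher and 0 as lower, beside the same shares of all tested probe sets. After median centring, which raised the median of all tested probe sets to 0.08, 18 of the 21 probe sets were positive and 3 negative, and of the 9 genes 9 were positive and 0 negative.

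**Figure D1:**
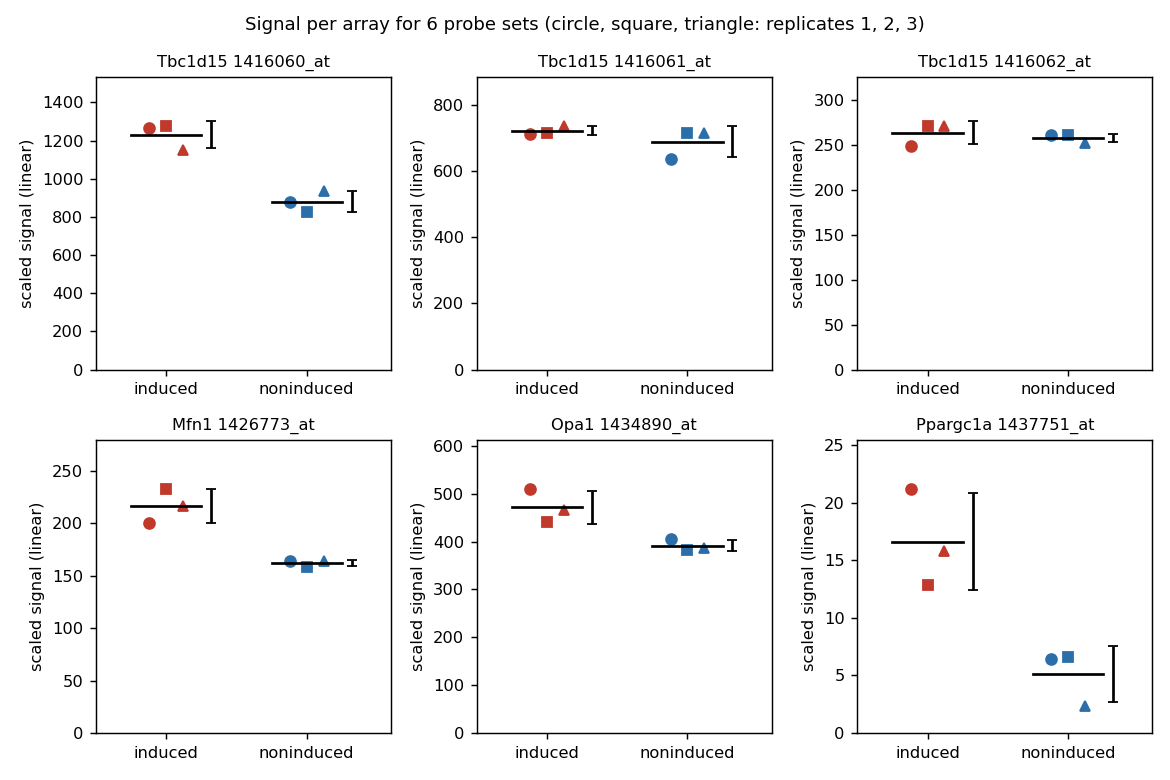
Scaled signal (linear axis from 0) of the 3 Tbc1d15 probe sets and of 1 each of Mfn1, Opa1 and Ppargc1a, with 1 point per array, induced left of noninduced; bars are group means and whiskers ± SD (n = 3 each). The induced arrays of Tbc1d15 1416060_at lie between 1152 and 1277, above the noninduced arrays at 827.4 to 935.8, while the other 2 Tbc1d15 probe sets overlap.

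None of the biogenesis genes passed the threshold. Of their 12 probe sets 7 were tested, 3 positive and 4 negative, with log2 fold changes from -0.14 to 0.35 and a median of -0.05; after median centring 5 were positive and 2 negative. The groups were apart for 1 of the 7, higher in induced arrays, where 9.65% of all tested probe sets were apart in this direction. Ppargc1a encodes PGC-1alpha, the coactivator that exercise and cold are known to induce. It was near the bottom of the array's scale, between 0.211 and 21.2 on all 5 probe sets, and none was tested. Its probe set 1437751_at gave 21.2, 12.9 and 15.8 in induced arrays, against 6.38, 6.63 and 2.33 in noninduced arrays. All 3 induced arrays were above the noninduced ones, while the groups overlapped for the other 4 Ppargc1a probe sets, whose highest values were 10.3 in induced arrays and 12.2 in noninduced arrays. In a fit with no signal filter this probe set had a log2 fold change of 0.63 (SE 0.198, adjusted p = 0.334, limma), where 0.00222% of all probe sets passed. Among probe sets below the filter 3.25% were apart with induced arrays higher and 7.90% with induced arrays lower.

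Ppargc1b, the related coactivator PGC-1beta, was measured well above the filter. It gave 204.7, 203.3 and 220.5 in induced arrays, against 201.3, 220.6 and 189.4 in noninduced arrays, with overlapping groups and a log2 fold change of 0.04 (95% interval -0.15 to 0.23, adjusted p = 0.878, limma). Tfam 1448224_at gave 636, 694 and 626 in induced arrays, against 692, 671 and 658 in noninduced arrays. These groups also overlapped, with a log2 fold change of -0.05 (95% interval -0.18 to 0.09), and after median centring it was 0.05. The second Tfam probe set, 1456215_at, had a log2 fold change of -0.10 (adjusted p = 0.802, limma), and 0.05 without induced replicate 3.

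Nrf1, nuclear respiratory factor 1, had 4 tested probe sets, with log2 fold changes in both directions. The signal of 1420978_at was 87.3, 57.5 and 56.5 in induced arrays, against 43.5, 51.6 and 50.6 in noninduced arrays. The groups were apart, but the value rested largely on induced replicate 1. The log2 fold change was 0.35 (SE 0.169, adjusted p = 0.372, limma) and 0.68 within the first fluidics run, where induced replicate 1 stands alone. Without that array it was 0.18. The same array was high on 1445914_at, at 79.7 in induced replicate 1 with 39.2 and 39.8 in the other induced arrays, against 39.4, 57.7 and 53.9 in noninduced arrays. That log2 fold change was 0.02, and -0.25 without induced replicate 1. The probe sets 1424787_a_at and 1434627_at had log2 fold changes of -0.08 and -0.14, with overlapping groups. The first was 0.01 after median centring and ran from -0.14 to -0.01 when each array was left out. The second was 0.11 within the first run and ran from -0.26 to -0.04.

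The fusion genes had 6 tested probe sets of 8, of which 5 were positive and 1 negative, with a median log2 fold change of 0.21 and a range of -0.01 to 0.38. None passed the threshold, and 3 had groups that did not overlap, all higher in induced arrays, where 9.65% of all tested probe sets were apart in this direction. These 3 read only Mfn1 and Opa1. After median centring 6 of the fusion probe sets were positive and 0 negative, with a median of 0.30. Mfn1 1426773_at gave 200.7, 232.7 and 217.1 in induced arrays, against 163.8, 158.9 and 163.9 in noninduced arrays. Mfn1 is a mitofusin, a GTPase of the outer membrane that tethers and fuses neighbouring mitochondria. Its means were 216.8 ± 16.02 in induced arrays and 162.2 ± 2.885 in noninduced arrays (SD, n = 3 each), a log2 fold change of 0.38 (SE 0.0888, 95% interval 0.19 to 0.58, adjusted p = 0.1005, limma). After median centring it was 0.48 and passed (adjusted p = 0.0435, limma), and within the first run it was 0.28. The other tested Mfn1 probe set, 1449697_s_at, gave 287.6, 298.4 and 270.3 in induced arrays, against 288.7, 213.9 and 243.6 in noninduced arrays. These groups overlapped, with a log2 fold change of 0.20 (adjusted p = 0.402, limma). It was 0.30 without noninduced replicate 1 and 0.099 without noninduced replicate 2.

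Opa1 encodes the dynamin-related GTPase that fuses inner membranes and keeps cristae in shape. Its probe set 1434890_at gave 509.5, 441.2 and 465.5 in induced arrays, against 404.5, 383.0 and 386.1 in noninduced arrays. The groups were apart, with means of 472 ± 34.6 in induced arrays and 391 ± 11.6 in noninduced arrays (SD, n = 3 each). This is a log2 fold change of 0.26 (SE 0.0724, 95% interval 0.10 to 0.42, adjusted p = 0.148, limma), and 0.37 within the first run. For 1449214_a_at the signals were 257.0, 301.7 and 294.9 in induced arrays, against 251.5, 234.0 and 241.3 in noninduced arrays. These groups were also apart, with a log2 fold change of 0.22 (adjusted p = 0.271, limma) and 0.08 within the first run. The third Opa1 probe set, 1418768_at, overlapped between groups, with a log2 fold change of 0.17, and 0.062 without noninduced replicate 1. Mfn2, the second mitofusin, which also tethers mitochondria to the endoplasmic reticulum, gave 432.8, 501.5 and 454.6 in induced arrays, against 448.3, 441.1 and 512.5 in noninduced arrays. The groups overlapped, with a log2 fold change of -0.01 (95% interval -0.19 to 0.16), and 0.08 after median centring.

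**Figure D2:**
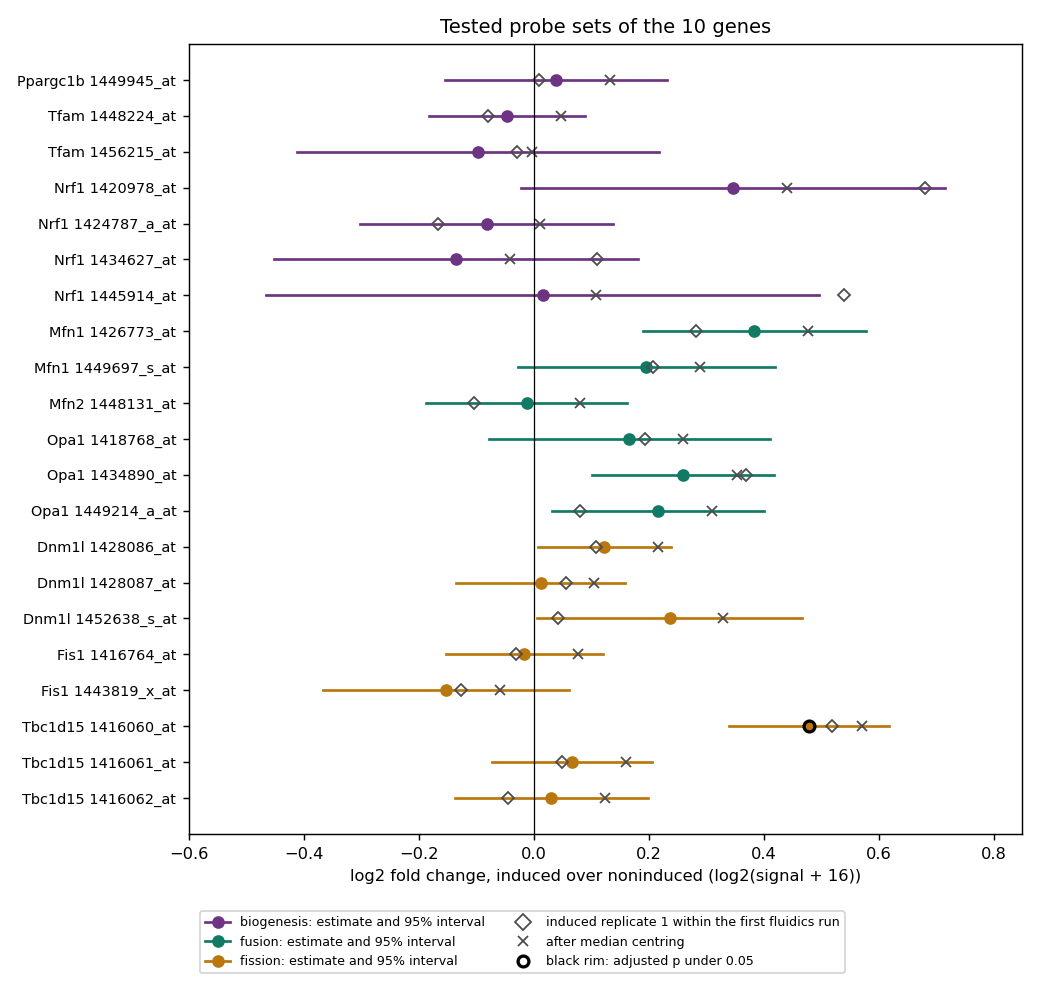
Log2 fold change, induced over noninduced, of the 21 tested probe sets by role, with 95% intervals; open diamonds give the value within the first fluidics run and crosses that after median centring. Tbc1d15 1416060_at at 0.48 carries the black rim of an adjusted p under 0.05, and median centring moves all points to the right.

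The fission genes had 8 tested probe sets of 9, of which 6 were positive and 2 negative, with a range of -0.15 to 0.48 and a median of 0.05. After median centring 7 were positive and 1 negative, with a median of 0.14. Dnm1l 1428086_at gave 1073, 1081 and 1098 in induced arrays, against 986, 962 and 1037 in noninduced arrays. Its groups were apart but close, with a log2 fold change of 0.12 (SE 0.0531, adjusted p = 0.315, limma). A second Dnm1l probe set, 1428087_at, had 0.01 with overlapping groups. The third, 1452638_s_at, gave 190.7, 242.2 and 232.2 in induced arrays, against 175.1, 176.4 and 204.5 in noninduced arrays. Here 1 induced array lay within the noninduced range, with a log2 fold change of 0.24 (adjusted p = 0.329, limma) and 0.04 within the first run. Fis1, the outer membrane protein that binds Tbc1d15, gave 1029, 1007 and 1083 on 1416764_at in induced arrays, against 973.5, 1119 and 1068 in noninduced arrays. Its groups overlapped, with a log2 fold change of -0.02 (95% interval -0.15 to 0.12), and 0.08 after median centring. The second Fis1 probe set, 1443819_x_at, had -0.15 (adjusted p = 0.501, limma), and from -0.25 to -0.096 when each array was left out.

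Tbc1d15 held the one call, on 1 of its 3 probe sets. The signal of 1416060_at was 1266, 1277 and 1152 in induced arrays, against 876.5, 827.4 and 935.8 in noninduced arrays. The groups stood apart, with means of 1232 ± 69.3 in induced arrays and 880 ± 54.3 in noninduced arrays (SD, n = 3 each). Its log2 fold change of 0.48 (SE 0.0637, 95% interval 0.34 to 0.62, adjusted p = 0.0151, limma) had the 10th smallest p of the 22518 tested. Within the first run, where induced replicate 1 is set against the 3 noninduced arrays, it was 0.52. That value has an arm of 1 array, whose spread is assumed to equal that of the noninduced arrays, so its adjusted p of 0.193 (limma) is no replicated test. The value lay between 0.44 and 0.53 when each array was left out. The call was lost without induced replicate 1 (adjusted p = 0.0906, limma), without induced replicate 2 (adjusted p = 0.0697, limma) and without noninduced replicate 2 (adjusted p = 0.0676, limma). Over 18 alternatives the adjusted p ran from 0.0062 to 0.2926 (limma), and it passed in 10. The first run alone and the run as a block, both among the 18, give the same log2 fold change, because the second run holds induced arrays only.

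The other probe sets of Tbc1d15 did not show this difference. For 1416061_at the signals were 712.8, 716.5 and 737.0 in induced arrays, against 636.8, 716.1 and 716.0 in noninduced arrays. The groups were nearly level, with the single low value in noninduced replicate 1, and the log2 fold change was 0.07 (95% interval -0.07 to 0.21, adjusted p = 0.670, limma), and 0.012 without noninduced replicate 1. For 1416062_at the signals were 248.8, 270.2 and 270.8 in induced arrays, against 260.3, 260.1 and 251.7 in noninduced arrays. That log2 fold change was 0.03 (95% interval -0.14 to 0.20, adjusted p = 0.893, limma), and -0.05 within the first run. The platform annotation gives all 3 the same source sequence, and which stretch of the transcript each reads was not analysed here. The log2 fold change of 1416060_at exceeded that of 1416061_at by 0.41 and that of 1416062_at by 0.45, with no overlap between the groups in either difference. The exact two-sided permutation p was 0.1 for each, the smallest the design allows, and 0.36 after adjustment over the 18 pairs of probe sets compared. The probe set 1416060_at was singled out for its own call in these same arrays, so these differences carry no independent test. Of the 18 pairs 5 had differences that did not overlap between groups, the 2 of 1416060_at and the 3 that set Nrf1 1420978_at against the other Nrf1 probe sets. All 5 hold a probe set whose own groups were apart. The share of such pairs over all genes of the array was not computed, so the count is a description only.

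When the tested probe sets of each gene were averaged first, 0 of the 9 genes passed (limma). Mfn1 had the largest mean log2 fold change at 0.29 (adjusted p = 0.129, limma), followed by Opa1 at 0.21, Tbc1d15 at 0.19 and Dnm1l at 0.12. Nrf1 had 0.04, Ppargc1b 0.04, Mfn2 -0.01, Tfam -0.07 and Fis1 -0.08.

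**Figure D3:**
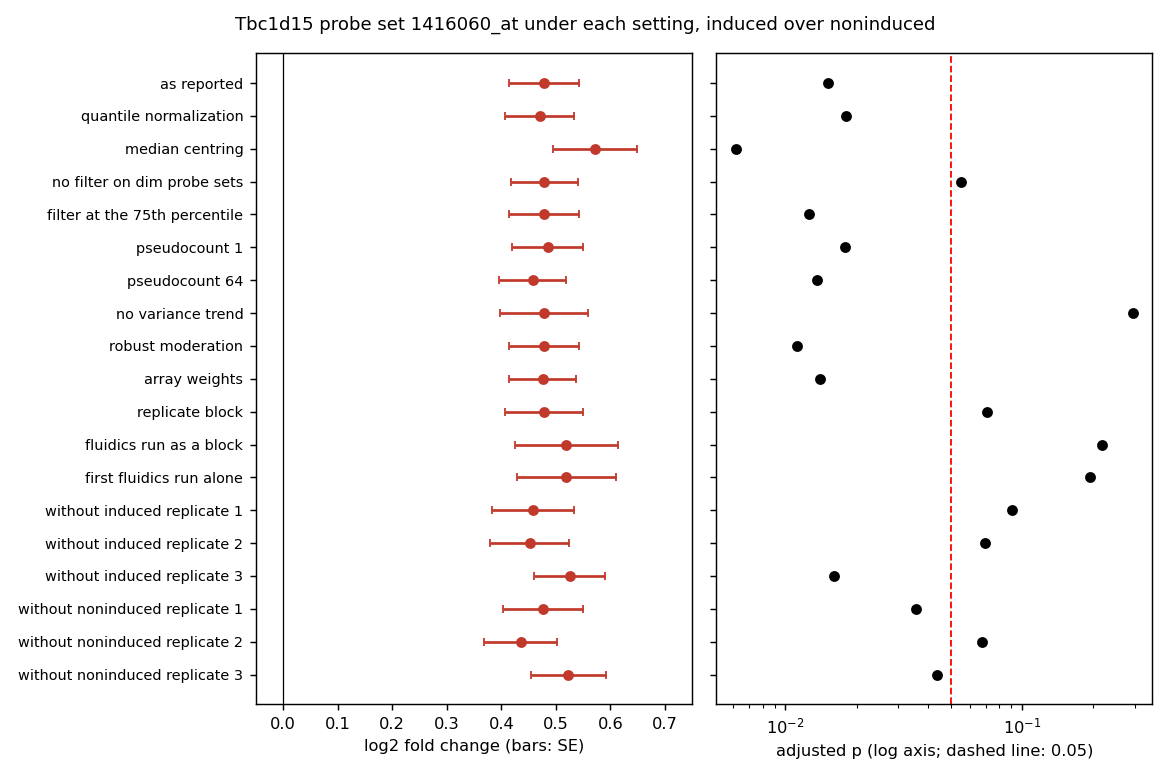
Log2 fold change of Tbc1d15 1416060_at, induced over noninduced (left, bars are SE), and its adjusted p (right, log axis, dashed line at 0.05) as reported and under 18 alternatives, 1 per row. The log2 fold change lies between 0.44 and 0.57 in all rows, and the adjusted p lies below the line in 10 of the 18 alternatives.

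**Figure D4:**
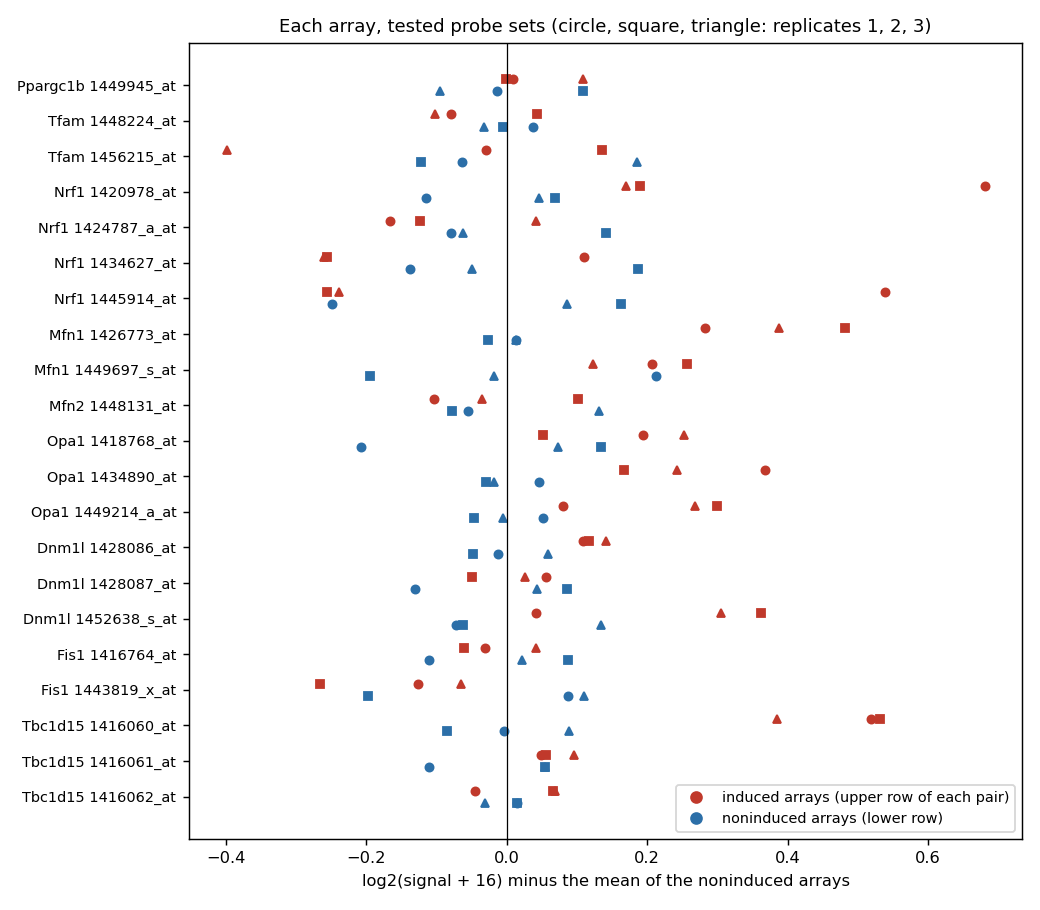
Each array's log2(signal + 16) minus the mean of the noninduced arrays for the 21 tested probe sets, with induced arrays above noninduced arrays in each pair of rows and marker shapes for replicates 1, 2 and 3. The induced arrays of Tbc1d15 1416060_at stand to the right of its noninduced arrays, and on the Nrf1 probe sets 1420978_at and 1445914_at induced replicate 1 lies far from the other induced arrays.

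Genes that work beside the members were read from 5 lists, each gene by its probe set with the highest signal. Counting every probe set of the listed genes and not only the brightest, 289 were tested and 1 passed, where 0.200% of all tested probe sets did. The signs in each list depended on the scaling, and the counts after median centring are given beside them. The biogenesis partners, which are nuclear receptors, co-regulators and the machinery of mitochondrial DNA, had 25 tested genes, 16 positive and 9 negative (21 and 4 after median centring), with a median log2 fold change of 0.03 and 0 past the threshold. Tfb2m, the transcription factor that opens mitochondrial promoters, averaged 654 ± 75.1 in induced arrays and 803 ± 51.3 in noninduced arrays (SD, n = 3 each), a log2 fold change of -0.29 (adjusted p = 0.153, limma). Perm1, a muscle regulator of PGC-1 targets, had -0.44 (adjusted p = 0.443, limma) at a signal near the filter. Its value ran from -0.62 to -0.17 when each array was left out, and was -0.07 within the first run. Ssbp1, which coats single-stranded mitochondrial DNA, and Slirp, which stabilises mitochondrial mRNA, had 0.06 each, and Ssbp1 had -0.03 within the first run. The upstream regulators of PGC-1 had 23 tested genes, 13 positive and 10 negative (16 and 7 after median centring), with a median of 0.03 and 0 past the threshold. Nrip1, the corepressor RIP140, had 0.31 (adjusted p = 0.169, limma). Sirt3, a mitochondrial deacetylase, had -0.38 (adjusted p = 0.279, limma), and Kat2a, the acetyltransferase GCN5, 0.16. Mybbp1a, a repressor that binds PGC-1alpha, had 0.03, and -0.05 within the first run.

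The fusion and fission partners had 31 tested genes, 15 positive and 16 negative (23 and 8 after median centring), with a median log2 fold change of -0.01 and 0 past the threshold. Mff, an outer membrane receptor for Drp1, averaged 2976 ± 220.4 in induced arrays and 2470 ± 84.5 in noninduced arrays (SD, n = 3 each). Its groups were apart, with a log2 fold change of 0.27 (adjusted p = 0.0793, limma) and 0.38 within the first run. Mtfr1, a fission regulator, had 0.27 (adjusted p = 0.257, limma), and 0.16 to 0.33 when each array was left out. Mief2, another Drp1 receptor, had -0.30 (adjusted p = 0.474, limma), -0.43 to -0.14 when each array was left out, and -0.51 within the first run. Phb2, a prohibitin of the inner membrane, had -0.10, and 0.02 within the first run. The partners of Tbc1d15 and the mitophagy genes had 27 tested genes, 10 positive and 17 negative (19 and 8 after median centring), with a median of -0.06 and 0 past the threshold. Bnip3, a mitophagy receptor, had 0.31 (adjusted p = 0.123, limma). Tbc1d16, of the same domain family as Tbc1d15, had -0.38 (adjusted p = 0.211, limma). Sqstm1, the autophagy adaptor p62, had 0.09, and Gabarap, an autophagosome protein, had -0.03 and 0.07 after median centring.

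The list of mitochondrial content, which holds respiratory chain, import and matrix proteins, had 28 tested genes, 8 positive and 20 negative, with a median log2 fold change of -0.02. After median centring 26 were positive and 2 negative, with a median of 0.07. Hspa9, the matrix chaperone of the import motor, was its 1 gene past the threshold. Its probe set 1418504_at gave 3872, 4000 and 3843 in induced arrays, against 3002, 3173 and 3117 in noninduced arrays. The groups were far apart, with a log2 fold change of 0.33 (SE 0.0427, adjusted p = 0.0151, limma) and 0.32 within the first run. The call was lost without induced replicate 1 (adjusted p = 0.0709, limma), induced replicate 2 (0.0619), noninduced replicate 2 (0.0549) and noninduced replicate 3 (0.0643). Over 18 alternatives its adjusted p ran from 0.0062 to 0.2926 (limma) and passed in 9. The other 4 tested Hspa9 probe sets had log2 fold changes of 0.16 to 0.30, and none passed. Timm44, which tethers that chaperone to the import channel, averaged 675 ± 32.3 in induced arrays and 815 ± 33.3 in noninduced arrays (SD, n = 3 each), with a log2 fold change of -0.27 (adjusted p = 0.1001, limma). Of the respiratory chain genes with the highest signal, Atp5b had 0.00 and Cox6c -0.06, and after median centring 0.09 and 0.04.

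**Figure D5:**
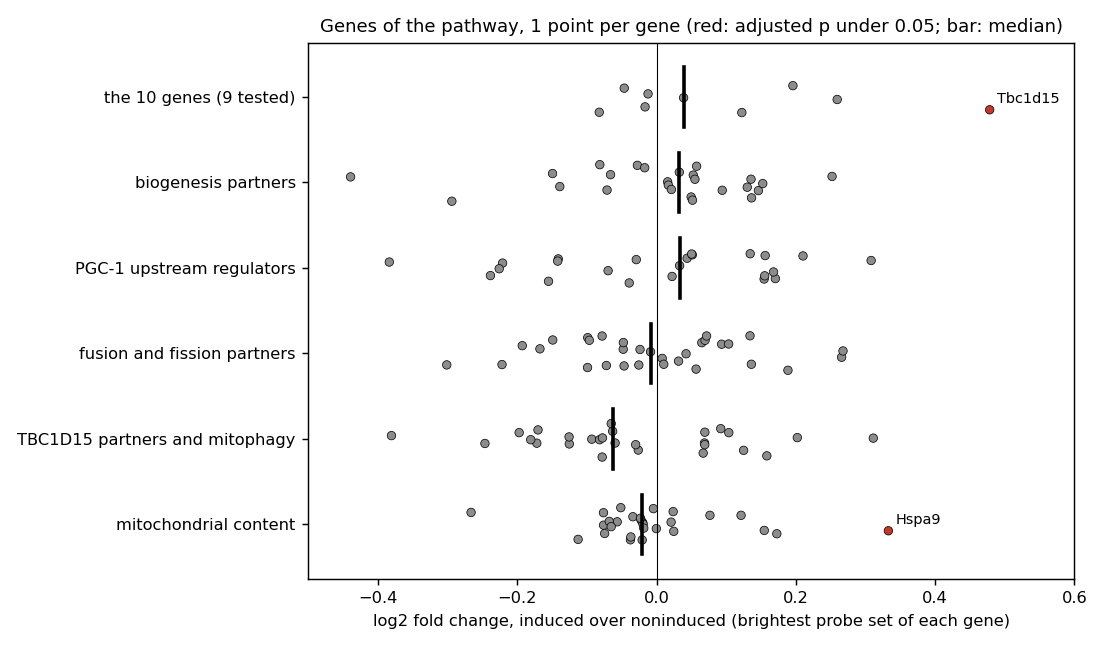
Log2 fold change, induced over noninduced, of every tested gene of the members and of the 5 lists of partner genes by its brightest probe set, with 1 point per gene, red where the adjusted p is under 0.05, and a bar at each median. Hspa9 at 0.33 is past the threshold in the list of mitochondrial content, Tbc1d15 1416060_at at 0.48 among the members, and the medians of the 5 lists lie between -0.06 and 0.03 (0.03 and 0.13 after median centring).

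The probe sets whose signals followed Tbc1d15 1416060_at most closely over the 6 arrays, by Pearson's r of log2 signals, were those of Kif5b (r = 0.9953), Eif4ebp1, Tlk1, Hcfc2 and Ezh2. With 6 arrays in 2 groups, 162 of the 19831 probe sets compared had r above 0.95. After each array was centred on its group's mean the closest were Fam210a, Rp2, Hoxa11, Kctd6 and Ccdc127, none of them among the first 5. All points share the 6 arrays and their scaling, so these values describe likeness and carry no test.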

How the data were processed

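Biotin-labelled RNA of each of the 6 samples, per the labels' protocols, was read on an array of its own, of type Mouse430_2 per the file headers. The deposited intensity is a linear signal per probe set, which the authors computed with GCOS 1.1.1 (named in the submitters' processing notes, without settings). Scaling to a common trimmed mean (150.0, with 2% removed at each end) was read from the values, so a shift of most transcripts would not show. The deposited instrument records gave scan order and the times from which fluidics runs were inferred (unit other, per the file headers). A gap of over 30 min between these times started a new run.

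Titles gave the groups. After 64 array controls were removed, genes were named through the 34945 probe sets to which the platform annotation gives 1 gene; 932 had several and 9160 were not listed. Testing was by limma 3.58.1 (R 4.3.3; trended eBayes moderation) on log2(signal + 16) above the filter, 3 against 3 arrays, and precision is limited by that number. Alternatives covered normalization (quantile, median centring), the filter, pseudocounts 1 and 64, the variance model, array weights, blocks for replicate number or fluidics run, the first run alone, each array left out, a threshold of 0.10 and averaged probe sets. From each partner list, genes past the threshold are named, with the 2 of largest change and the 2 of highest signal. The members, lists and motifs were chosen with earlier results of these data known. Same-numbered arrays did not deviate together (correlations 0.0124, -0.0629 and -0.0088), so the numbers were not taken as pairs.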

Additional observations from a re-analysis of the deposited data

How the results depend on the processing

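Of 374 values of the 21 tested member probe sets under the alternatives, 347 kept direction and side of the threshold, 18 reversed, 8 were weaker and 1 was stronger. The counts of probe sets past the threshold moved most. Over all tested probe sets, against 45, limma called 306 after median centring, 1 with no filter, 102 with the 75th percentile as filter, 74 with robust moderation, 86 with array weights, 219 at a threshold of 0.10, and 0 to 50 when each array was left out. The first run alone sets 1 induced array against 3, and the run as a block gives the same log2 fold changes. Calls numbered 0 with no variance trend, with the run as a block and in the first run alone, where 2817, 1923 and 1976 had an unadjusted p under 0.05, against 3306. Of the 45 calls 27 were higher in induced arrays, and of the 306 after median centring 294; that centring moved the median of all tested probe sets to 0.08.

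Among the members, against 1 call, median centring gave 2 (Tbc1d15 and Mfn1). No filter, no variance trend, the run as a block, the first run alone and averaging a gene's probe sets gave 0, and leaving out each array gave 0 to 1. For the partner lists, against 1 call, median centring gave 5, a threshold of 0.10 gave 3, leaving out each array gave 0 to 1, and no filter, no variance trend, the run as a block and the first run alone gave 0. The members' median log2 fold change was 0.13 after median centring, 0.067 with the stricter filter, and 0.032 to 0.094 when each array was left out. With the replicate number as a block, limma called 5 of all tested probe sets, 0 of the members (Tbc1d15, adjusted p = 0.0711) and 0 of the lists; not every array correlated best with its own number.

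Several values reversed. After median centring they were Tfam 1448224_at (0.047), Nrf1 1424787_a_at (0.011), Mfn2 1448131_at (0.081) and Fis1 1416764_at (0.077). With the run as a block, and in the first run alone, they were Nrf1 1434627_at (0.11) and Tbc1d15 1416062_at (-0.045). With each array left out, Nrf1 1445914_at ranged from -0.25 to 0.15, Mfn2 1448131_at from -0.069 to 0.054, Dnm1l 1428087_at from -0.053 to 0.055, Fis1 1416764_at from -0.071 to 0.027, Tfam 1456215_at from -0.21 to 0.054 and Ppargc1b 1449945_at from -0.0088 to 0.093. The causes were not tested. Itga7 kept its direction and stayed short of the threshold under every alternative run, at -0.096 after median centring. Signal limits Ppargc1a most, since all its probe sets lay below the filter.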
